A study of Mus musculus with 6 samples.

Results

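The messenger RNAs described here encode 10 transcription regulators of the AP-1 and immediate early class, 4 of the FOS family (Fos, Fosb, Fosl1, Fosl2), 3 of the JUN family (Jun, Junb, Jund), and Atf3, Egr1 and Ier2. They were taken by gene symbol, each matching 1 row of a table of 24421 genes, and all 10 passed the filter of a mean of at least 1 FPKM (reads per kilobase of gene length on a scale set per library). The cells were 3 mouse pancreatic ductal adenocarcinoma lines, called 2838c3, 6419c5 and 6499c4, obtained from the Stanger Lab and used at passages 15 to 20 in medium with 5% fetal bovine serum. RNA was taken after 16 hours with DMSO, the vehicle, or with 250 nM of G-1, which activates the membrane oestrogen receptor GPER. Every line gave 1 library for each treatment, 6 in total, so serum was present in every group and no line and treatment had a replicate of its own. The labels do not say how many cultures stand behind a library or give the genotype of the lines, and p-values measure only the spread between these libraries.

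AP-1 is a dimer of proteins with a basic region and a leucine zipper. FOS proteins bind DNA only together with a partner, most often a JUN protein, whereas JUN proteins can also pair with each other or with ATF proteins such as ATF3. Several of these genes are immediate early genes, which are transcribed within minutes of a stimulus such as serum, without new protein synthesis, and whose messages usually decay fast. In pancreatic ductal adenocarcinoma the RAS and MAP kinase pathway is commonly active, and Fosl1, which encodes FRA-1, is a known downstream gene of that pathway. An mRNA level measured after 16 hours therefore describes a late state, and the first hours after G-1 were not measured.

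The promoters of 4 members are shown, since sites just before the start of Fos, Jun, Junb and Atf3 are where textbook signals from cAMP and stress kinases reach these genes. Of the 10 members 7 were matched in the RefSeq promoter table (GRCm38.p6), which gives 250 bases before and 50 after a start; Fosl1, Egr1 and Ier2 were not. The sequences below are the 120 bases up to the start, 5′ to 3′ on the gene's own strand. Capitals mark matches to TGACG (the core of the cAMP response element, CGTCA on the other strand), to TGACATCA, or to the TATA box TATAAA.
Fos: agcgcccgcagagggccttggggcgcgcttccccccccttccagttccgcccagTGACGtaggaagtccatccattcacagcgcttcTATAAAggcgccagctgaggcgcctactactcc
Jun: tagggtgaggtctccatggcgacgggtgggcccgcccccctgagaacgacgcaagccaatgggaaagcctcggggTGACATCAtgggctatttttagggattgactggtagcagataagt
Junb: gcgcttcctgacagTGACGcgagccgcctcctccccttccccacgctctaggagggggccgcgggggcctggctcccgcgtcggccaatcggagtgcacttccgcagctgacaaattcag
Atf3: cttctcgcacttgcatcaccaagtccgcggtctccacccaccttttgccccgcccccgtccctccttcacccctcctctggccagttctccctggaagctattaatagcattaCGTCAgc
These windows lie at chr12:85473770-85473889 on the plus strand for Fos, and on the minus strand at chr4:95052223-95052342 for Jun, chr8:84978749-84978868 for Junb and chr1:191183334-191183453 for Atf3. The Atf3 window lies inside the longest annotated form of the gene, which begins further upstream.

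In Fos the TGACG match within the bases shown began 66 bases and the TATA box 33 bases before the start. A further match to this core began 129 bases before the start, beyond the bases shown. Jun held TGACATCA, the AP-1-like form known from its promoter, 45 bases before the start. The core began 106 bases before the start in Junb and 7 bases before it in Atf3. Over the full windows, the core was found in 4 of 7 matched members (Fos, Fosb, Junb, Atf3), against 20.8% of 32851 promoters. TGACATCA was found in Jun only, against 3.62% of promoters, and TATAAA on the gene's strand in Fos and Junb, against 8.32%, with the Junb match at the start itself and so past the bases shown. The complete cAMP response element TGACGTCA (1.79% of promoters), the AP-1 site TGACTCA (5.2%) and the CArG box bound by SRF (1.63%) were in 0 of the 7 windows. Bases more than 250 before a start were not searched, so this count cannot tell whether a gene has such a site further upstream. The RefSeq starts are not always those of the GENCODE genes given below, since the Jund window lies upstream of that annotated gene and the Fosl2 start lies inside it. The core TGACG, TGACATCA and TATAAA were chosen after the windows had been read, every motif but TATAAA was searched on both strands, TGACG is contained in TGACGTCA, and a match describes letters and not binding.

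Reads in genes ran from 5455990 in the G-1 library of 6419c5 to 8890821 in the vehicle library of 2838c3. The 10 members held between 36 and 1930 reads in any library, so none was near the limit that a count of 0 allows (3 reads). The labelled cell type was checked on markers. The summed level of 10 epithelial and duct markers was 3429 to 5970 FPKM over the 6 libraries, and 9 of the 10 passed the filter. Leukocyte markers summed to 0.788 to 3.38 FPKM with Adgre1 at 0, endothelial markers to 0.129 to 2.15 with Emcn at 0, and fibroblast markers to 0.405 to 1.11 with Col1a2, Dcn and Lum at 0. The 7 acinar and islet markers in the table were at 0 in every library. In RNA from whole cultures, more message per cell and more cells carrying the message cannot be told apart.

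Junb was the most abundant of the 10 messages in every library. Its level ran from 67.6 to 127 FPKM, and its mean of 107 FPKM lay at percentile 93.6 of the 10748 genes tested. Fosl1 followed with a mean of 63.3 FPKM (percentile 87.6), and Ier2 with a mean of 42.1 FPKM (percentile 80.3). Fosl2 (mean 19.5 FPKM), Jund (14.5), Atf3 (13.0), Jun (10.1), Egr1 (9.15) and Fos (7.82) formed a middle group whose ranges overlapped. Fosb had a mean of 2.12 FPKM, at percentile 8.98, and its highest library at 3.34 FPKM was below the lowest library of Fos at 3.58 FPKM. Ier2 at its lowest, 33.7 FPKM, was above the highest library of every member of the middle group. Fosl1 exceeded Ier2 in 2838c3 and 6419c5, but in 6499c4 Ier2 was the higher of both under vehicle and under G-1.

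**Figure D1:**
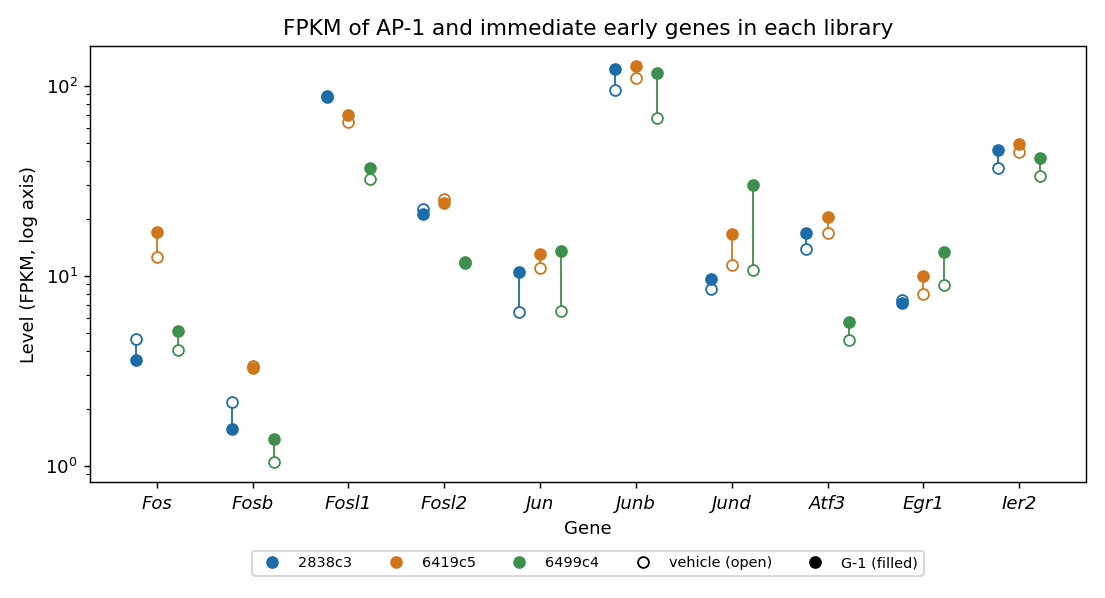
Level of each of the 10 genes in FPKM on a log axis, with an open circle for the vehicle library and a filled circle for the G-1 library of each line, joined by a line and coloured by cell line. Junb lies on top with 67.6 to 127 FPKM and Fosb at the bottom with 1.04 to 3.34 FPKM, and the gap between lines is widest for Atf3 and Fos.

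Within the FOS family, Fosl1 and Fosl2 were lowest in 6499c4, while Fos and Fosb were highest in 6419c5. Fosl1 was at 86.8 FPKM under vehicle and 88.7 FPKM under G-1 in 2838c3, at 64.6 and 70.2 FPKM in 6419c5, and 32.3 and 37.1 FPKM in 6499c4. The 3 lines did not overlap. On the scale of log2(FPKM + 1), which understates the change of low genes, Fosl1 was lower in 6499c4 than in 2838c3 by a difference of -1.32 (SE 0.08, adjusted p = 1.34e-05, limma), and lower than in 6419c5 by -0.94 (SE 0.08, adjusted p = 9.32e-05). The smaller difference of -0.38 between 6419c5 and 2838c3 (SE 0.08, adjusted p = 0.00495) did not pass without the vehicle library of 2838c3 (adjusted p = 0.0587). In the annotation (GENCODE M21, GRCm38) Fosl1 lies at chr19:5447547-5455946 on the plus strand, and 1163 of its 2033 exon bases overlap exons of Ccdc85b on the other strand. Whether strand was used in counting is unstated, so reads of the overlap cannot be assigned with certainty.

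Fosl2, which encodes FRA-2, was at 22.5 and 21.2 FPKM in 2838c3, 25.5 and 24.2 FPKM in 6419c5, and 11.8 and 11.7 FPKM in 6499c4. Levels in 6499c4 were thus about the same under both treatments and below those of the other lines. The difference was -0.84 against 2838c3 (SE 0.09, adjusted p = 0.000196) and -1.02 against 6419c5 (SE 0.09, adjusted p = 0.00013), whereas that between 6419c5 and 2838c3, 0.18, did not pass (adjusted p = 0.132). Fosl2 lies at chr5:32135801-32157842 on the plus strand with no overlapping exon of another gene.

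Fos itself, the serum-induced founding member of the family, was at 4.63 and 3.58 FPKM in 2838c3, 12.5 and 17.0 FPKM in 6419c5, and 4.07 and 5.12 FPKM in 6499c4. Both libraries of 6419c5 were above the other 4, whose ranges overlapped. Fos was higher in 6419c5 than in 2838c3 by 1.62 (SE 0.18, adjusted p = 0.000352), lower in 6499c4 than in 6419c5 by -1.49 (SE 0.18, adjusted p = 0.000591), and 6499c4 and 2838c3 differed by 0.13, which did not pass (adjusted p = 0.556). Fosl1 exceeded Fos in every library, by 18.7 and 24.8 times in 2838c3, 5.17 and 4.13 times in 6419c5, and 7.95 and 7.24 times in 6499c4. Fos lies at chr12:85473890-85477273 on the plus strand with no overlapping exon.

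Fosb, like Fos, was highest in 6419c5, with 2.17 and 1.55 FPKM in 2838c3, 3.34 and 3.26 FPKM in 6419c5, and 1.04 and 1.39 FPKM in 6499c4. These values rest on 36 to 90 reads per library. Fosb was lower in 6499c4 than in 6419c5 by -0.96 (SE 0.19, adjusted p = 0.00518), which missed the threshold without the G-1 library of 6419c5 (adjusted p = 0.0563). Its difference of 0.60 between 6419c5 and 2838c3 (SE 0.19, adjusted p = 0.0309) did not pass without either library of 6419c5 or without the G-1 library of 2838c3 (adjusted p = 0.134 to 0.26). Fosb lies at chr7:19302696-19310051 on the minus strand.

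In the JUN family the line differences were from -0.41 to 0.92 and each call among them was lost when 1 library was left out. Junb was at 95.1 and 123 FPKM in 2838c3, 110 and 127 FPKM in 6419c5, and 67.6 and 117 FPKM in 6499c4, so the vehicle library of 6499c4 was the lowest and the G-1 libraries lay close together. It was lower in 6499c4 than in 6419c5 by -0.41 (SE 0.13, adjusted p = 0.0338). This call was lost without either vehicle library (adjusted p = 0.233 and 0.298) and with libraries scaled to total reads (-0.31, adjusted p = 0.0876). Junb, whose product pairs with FOS proteins and often restrains JUN, lies at chr8:84974484-84978718 on the minus strand. The longest of its 2 annotated transcripts has 1 exon, and 173 of the 2301 exon bases of the gene overlap Prdx2 on the other strand.

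Jun was at 6.45 and 10.4 FPKM in 2838c3, 11.0 and 13.0 FPKM in 6419c5, and 6.51 and 13.5 FPKM in 6499c4. The lines overlapped, since the vehicle libraries of 2838c3 and 6499c4 were low and their G-1 libraries were not. The difference of 0.49 between 6419c5 and 2838c3 (SE 0.17, adjusted p = 0.0449) was close to the threshold and was lost without any 1 of 3 libraries (adjusted p = 0.13 to 0.395). Jun is a gene of 1 exon, at chr4:95049034-95052222 on the minus strand, with 232 of 3189 exon bases shared with the antisense gene Junos.

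Jund, the family member usually described as constitutive, was at 8.57 and 9.65 FPKM in 2838c3, 11.4 and 16.7 FPKM in 6419c5, and 10.7 and 30.0 FPKM in 6499c4. The G-1 library of 6499c4 stood well above the other 5. The difference of 0.92 between 6499c4 and 2838c3 (SE 0.26, adjusted p = 0.018) was 0.38 (adjusted p = 0.11) without that library, and was 0.52 (adjusted p = 0.141) without the G-1 library of 2838c3. Against 6419c5 the difference of 0.37 did not pass (adjusted p = 0.276), and without the G-1 library of 6499c4 it was -0.17. Jund is a gene of 1 exon at chr8:70698949-70700616 on the plus strand, and 877 of its 1668 exon bases are shared with the antisense gene Gm11175. As for Fosl1, reads of the overlaps in Jun, Junb and Jund cannot be assigned with certainty, since the use of strand is unstated.

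Atf3, a stress-induced partner of JUN proteins, had the largest difference between lines among the 10 genes, with 13.9 and 16.8 FPKM in 2838c3, 16.8 and 20.4 FPKM in 6419c5, and 4.59 and 5.74 FPKM in 6499c4. Both libraries of 6499c4 were far below the other 4. The difference was -1.41 against 2838c3 (SE 0.10, adjusted p = 3.42e-05) and -1.67 against 6419c5 (SE 0.10, adjusted p = 2.37e-05), while 6419c5 and 2838c3 differed by 0.26, which did not pass (adjusted p = 0.0608). Atf3 lies at chr1:191170296-191218039 on the minus strand with no overlapping exon.

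Egr1, a zinc finger factor induced through SRF and ELK proteins, was at 7.49 and 7.21 FPKM in 2838c3, 8.02 and 9.93 FPKM in 6419c5, and 8.92 and 13.3 FPKM in 6499c4. The order of its line means was the reverse of that of Fosl1, but 6419c5 and 6499c4 overlapped. The difference of 0.51 between 6499c4 and 2838c3 (SE 0.15, adjusted p = 0.0223) did not pass without the G-1 library of either line (adjusted p = 0.206 and 0.211), and the other line pairs did not pass. Egr1 lies at 34859823 to 34864984 of chromosome 18 on the plus strand.

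Ier2, a small nuclear regulator induced by growth factors, was at 36.9 and 46.0 FPKM in 2838c3, 44.7 and 49.5 FPKM in 6419c5, and 33.7 and 41.6 FPKM in 6499c4. It was lower in 6499c4 than in 6419c5 by -0.32 (SE 0.08, adjusted p = 0.0152). This was lost without either vehicle library (adjusted p = 0.0834 and 0.12) and with libraries scaled to total reads (-0.22, adjusted p = 0.0619). Ier2 is a gene of 1 exon at chr8:84661331-84662852 on the minus strand.

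Counted together, 3 members were higher and 1 was lower in 6419c5 than in 2838c3, where 26.2% of all genes tested were higher and 25.3% lower. In 6499c4 against 2838c3, 2 members were higher and 3 lower, beside 26.6% and 28.9% of all genes. In 6499c4 against 6419c5, 0 members were higher and 7 were lower (Fos, Fosb, Fosl1, Fosl2, Junb, Atf3 and Ier2), beside 21.3% higher and 23.7% lower among all genes. The median difference of the 10 was 0.25, -0.21 and -0.68 in these comparisons, against medians between -0.01 and 0.01 for all genes. Each pair of comparisons shares the libraries of 1 line. With libraries scaled to total reads, the median of all genes moved by 0.12 for 6499c4 against 2838c3 and by 0.10 for 6499c4 against 6419c5, and the share of calls that were higher went from 47.9% and 47.4% to 60.4% in both. Fosl1, Fosl2 and Atf3 kept their lower calls in 6499c4 under that scaling.

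**Figure D2:**
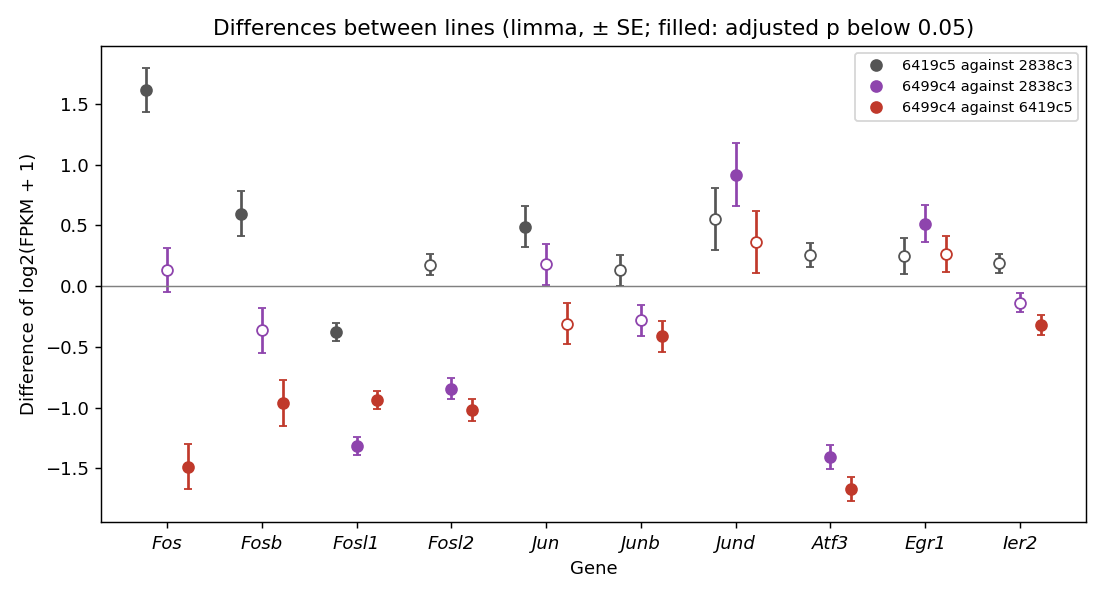
Difference of log2(FPKM + 1) between lines for each gene, with bars of 1 SE from the limma fit, coloured by line pair and filled where the adjusted p was below 0.05. Atf3, Fosl1 and Fosl2 are lower in 6499c4 than in both other lines, with differences from -0.84 to -1.67, and Fos is higher in 6419c5.

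The make-up of the FOS and JUN families differed with the line. FOS family messages summed to 116 FPKM under vehicle and 115 FPKM under G-1 in 2838c3, to 106 and 115 FPKM in 6419c5, and to 49.2 and 55.3 FPKM in 6499c4. The sums for the JUN family were 110 and 143 FPKM in 2838c3, 133 and 157 FPKM in 6419c5, and 84.9 and 160 FPKM in 6499c4. Both families were therefore about level in 2838c3 under vehicle, whereas in 6499c4 JUN messages outnumbered FOS messages. The JUN share of the summed FPKM was 48.7% under vehicle and 55.4% under G-1 for 2838c3, 55.6% and 57.8% for 6419c5, and 63.3% and 74.4% for 6499c4. Within each line the share was higher in the G-1 library, and this was a description of 1 pair of libraries per line. The shares were not corrected for GC content, with which the G-1 difference moved in 2838c3 and 6499c4, as described below. Fosl1 and Junb alone made up 71.4% to 82.0% of the sum in every library. These are message shares, and protein was not measured.

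**Figure D3:**
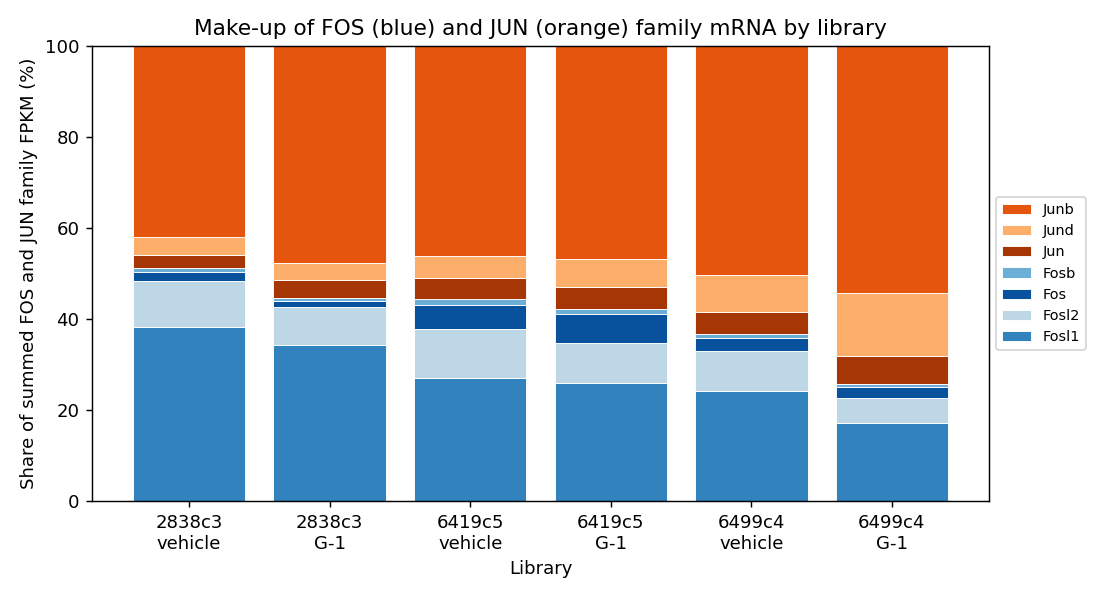
Stacked bars of the share of each FOS (blue) and JUN (orange) family member in their summed FPKM, in percent, 1 bar per library. The JUN share is lowest in the vehicle library of 2838c3 at 48.7% and highest in the G-1 library of 6499c4 at 74.4%.

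The second question was how these genes differed between G-1 and vehicle. The 3 JUN family messages were higher under G-1 in all 3 lines, with the largest differences in 6499c4, and no member passed the main test. Of 10748 genes, 3 passed limma on log2(FPKM + 1) with the line as block, which is 0.0279%, and 0 of them were members. At an unadjusted p below 0.05 there were 5 members (Jun, Junb, Jund, Atf3 and Ier2), beside 10.1% of all genes. In limma-voom, which weights the whole reads recovered from the FPKM values, Jun, Junb and Jund were higher under G-1, 3 of 10 members beside 1.07% of all genes. The median G-1 difference of the 10 members was 0.25, against -0.01 for all genes.

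The vehicle libraries of Junb (67.6 to 110 FPKM) lay below its G-1 libraries (117 to 127 FPKM). It was the 1 member whose 3 G-1 libraries all lay above all 3 vehicle libraries, beside 1.02% of all genes, and 0 members had all G-1 libraries below, beside 0.912%. The ratio of G-1 to vehicle from the reads was 1.29 (95% interval 1.21 to 1.38), 1.15 (1.07 to 1.25) and 1.73 (1.60 to 1.86) in 2838c3, 6419c5 and 6499c4. These intervals cover counting error only. The mean difference was 0.45 (SE 0.10, adjusted p = 0.3, limma), and 0.45 (adjusted p = 0.000715) in limma-voom.

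For Jun, the vehicle libraries were at 6.45 to 11.0 FPKM and the G-1 libraries at 10.4 to 13.5 FPKM. The G-1 library of 2838c3 was below the vehicle library of 6419c5, so the groups overlapped. Read ratios were 1.61 (1.33 to 1.96), 1.18 (0.982 to 1.42) and 2.07 (1.73 to 2.49) in the same order of lines. The mean difference was 0.59 (SE 0.14, adjusted p = 0.3, limma), and 0.67 (adjusted p = 0.00285) in limma-voom.

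Jund was at 8.57 to 11.4 FPKM in the vehicle libraries and at 9.65 to 30.0 FPKM in the G-1 libraries, which overlapped. Its difference in 6499c4 ranked 40 from the top among 10748 genes, the highest rank of a member in any line. Read ratios were 1.13 (0.932 to 1.36), 1.46 (1.22 to 1.75) and 2.80 (2.43 to 3.22). The mean difference was 0.69 (SE 0.21, adjusted p = 0.373, limma), and 0.87 (adjusted p = 0.000566) in limma-voom. All 3 limma-voom calls rested on 6499c4, since without that line the adjusted p was 0.0909 for Jun, 0.0523 for Junb and 0.265 for Jund. On the main scale the mean differences without 6499c4 were 0.42, 0.29 and 0.33.

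The FOS family members differed in direction under G-1. Fosl2 was lower under G-1 in all 3 lines by small amounts, with read ratios of 0.942 (0.865 to 1.02), 0.949 (0.864 to 1.04) and 0.995 (0.886 to 1.12). Fosl1 was higher in all 3 lines, with read ratios of 1.02 (0.945 to 1.11), 1.09 (0.978 to 1.21) and 1.15 (1.01 to 1.30), and a mean difference of 0.11 (SE 0.06, adjusted p = 0.565). Fos was lower in 2838c3 with a ratio of 0.773 (0.549 to 1.08) and higher in the others with ratios of 1.36 (1.11 to 1.67) and 1.26 (0.916 to 1.73). Its mean difference was 0.13 (SE 0.15, adjusted p = 0.793), and -0.01 without 6419c5. Fosb had ratios of 0.716 (0.488 to 1.04), 0.977 (0.701 to 1.36) and 1.33 (0.833 to 2.14), and a mean difference of -0.04 (SE 0.15, adjusted p = 0.952). Every interval of Fosb and Fosl2 spanned 1. Those of Fosb, from 36 to 90 reads per library, were wide, so a change within these intervals could not be told from none at this depth. Those of Fosl2, from 550 to 1130 reads, were narrow around ratios close to 1. Both sets of intervals cover counting error only.

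Atf3 was higher under G-1 by a similar ratio in each line, 1.21 (1.01 to 1.44), 1.21 (1.00 to 1.46) and 1.25 (0.92 to 1.71), with a mean difference of 0.26 (SE 0.08, adjusted p = 0.373). Ier2 had ratios of 1.25 (1.11 to 1.41), 1.11 (0.968 to 1.27) and 1.24 (1.09 to 1.41), and a mean difference of 0.25 (SE 0.07, adjusted p = 0.349). Neither passed limma-voom (adjusted p = 0.292 for Atf3 and 0.125 for Ier2). Egr1 had ratios of 0.962 (0.784 to 1.18), 1.24 (0.995 to 1.54) and 1.49 (1.26 to 1.77), which differed in sign between lines, and its mean difference of 0.25 did not pass (SE 0.12, adjusted p = 0.541). In all, 6 members were higher under G-1 in all 3 lines (Fosl1, Jun, Junb, Jund, Atf3 and Ier2), beside 15.4% of all genes, and 1 was lower in all 3, beside 17.5%.

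By the reads of single lines, 4 members had a ratio interval above 1 in 2838c3 (Jun, Junb, Atf3 and Ier2), beside 12.6% of genes. In 6419c5 there were 4 (Fos, Junb, Jund and Atf3), beside 7.77%, and in 6499c4 there were 6 (Fosl1, Jun, Junb, Jund, Egr1 and Ier2), beside 17.9%. Intervals below 1 were found for 0 members in each line, beside 18.2%, 8.76% and 17.7% of genes. Junb was the 1 member with an interval above 1 in all 3 lines. With 1 library per line and treatment, a difference in response between lines could not be tested.

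**Figure D4:**
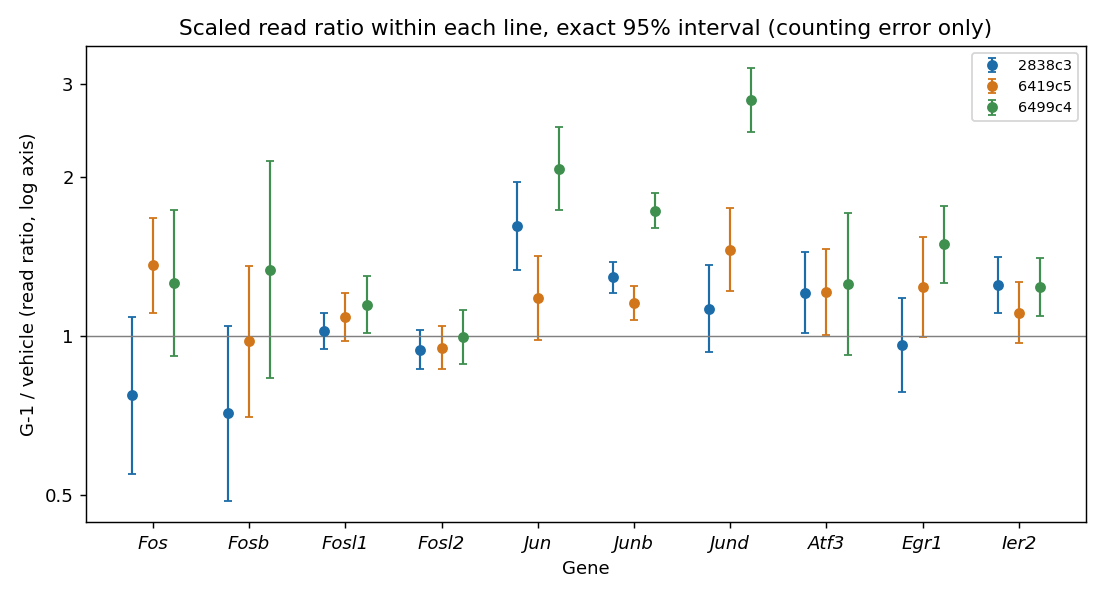
Ratio of G-1 to vehicle for each gene within each line on a log axis, from reads on the authors' scale, with exact 95% intervals that cover counting error only. Jun, Junb and Jund reach 2.07, 1.73 and 2.80 in 6499c4, while every interval of Fosb and Fosl2 spans 1.

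GC content moved with the G-1 difference across genes in 2838c3 and 6499c4, and several members are rich in GC. With the genes in 10 equal groups by GC content, the median difference went from -0.096 in the lowest group to 0.11 in the highest in 2838c3, and from -0.11 to 0.15 in 6499c4, whereas in 6419c5 it went from 0.036 to -0.0035. The longest GENCODE transcript of Jund has 67.1% GC (percentile 99.9 of the tested genes with a value), that of Junb 62.6% (percentile 99.0), that of Ier2 60.9% (percentile 97.6) and that of Jun 55.5% (percentile 80.6). The 12 other genes with at least the GC content of Jund had a median difference of 0.16, 0.31 and 1.46 in 2838c3, 6419c5 and 6499c4, where Jund had 0.15, 0.51 and 1.40. In 6499c4, 6 of those 12 genes were above Jund. The 102 other genes at or above the GC content of Junb had medians of 0.14, 0.04 and 0.35, where Junb had 0.37, 0.21 and 0.78, and 21 of them were above Junb in 6499c4. The 244 at or above that of Ier2 had medians of 0.14, 0.02 and 0.22, where Ier2 had 0.31, 0.14 and 0.30. The steps of the deposited values imply a longer gene model for Jund than this transcript, so its GC content is approximate.

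After each library was corrected for GC content and length by a smooth curve across genes, the limma-voom difference was 0.65 for Jun (adjusted p = 0.0265), 0.29 for Junb (adjusted p = 0.0635) and 0.63 for Jund (adjusted p = 0.0639). Jun was then the 1 member called higher, beside 0.226% of all genes. On the main scale the corrected differences were 0.58, 0.31 and 0.51 for Jun, Junb and Jund, 0.12 for Ier2 and 0.02 for Fosl1, and none passed. Only 12 other genes had at least the GC content of Jund, with a median of 1.46 in 6499c4 before correction. How closely the curve followed genes at that end was not tested, so the corrected Jund values carry this limit. Whether GC content has a part in the G-1 differences beyond these values was not tested. Ccdc85b, which overlaps Fosl1, had a read ratio of 2.79 in 6499c4 from 82 and 200 reads, beside 1.15 for Fosl1, and Prdx2, which overlaps Junb, had 1.02 there beside 1.73 for Junb. No such ratio was taken for Gm11175 and Junos, which overlap Jund and Jun.

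**Figure D5:**
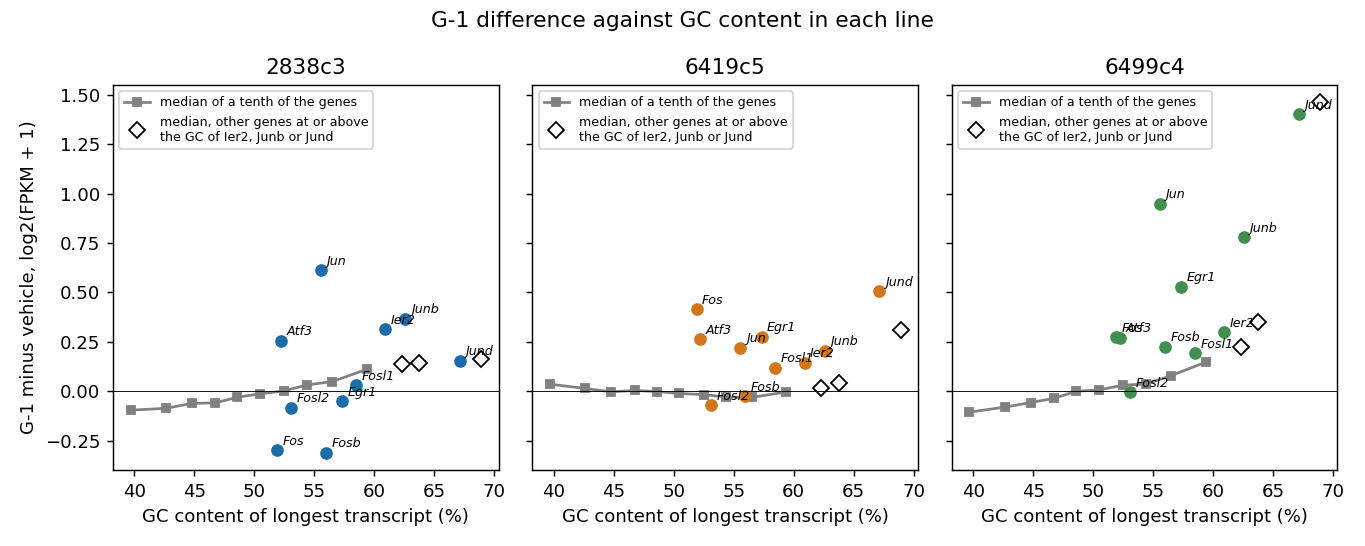
Difference of log2(FPKM + 1), G-1 minus vehicle, against the GC content of the longest transcript in percent, 1 panel per line, with the members as coloured points, medians of 10 equal groups of all genes by GC content as grey squares and medians of the other genes at or above the GC content of Ier2, Junb or Jund as open diamonds. In 6499c4 the diamond at the GC content of Jund lies at 1.46, close to Jund at 1.40, whereas Jun lies well above the grey squares.

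Related genes were read in 4 lists. Among 12 tested of 15 other dimer partners of AP-1, 4 were higher and 4 lower in 6419c5 than in 2838c3, 1 higher and 7 lower in 6499c4 than in 2838c3, and 0 higher and 4 lower in 6499c4 than in 6419c5. Beside them, 26.2% of all genes were higher and 25.3% lower in the first comparison, 26.6% and 28.9% in the second, and 21.3% and 23.7% in the third, so the first count was near the share over all genes. Maf, a large MAF factor, was at 6.38 and 7.97 FPKM in 6419c5 and between 0.61 and 0.78 FPKM elsewhere (6419c5 against 2838c3, 2.34, SE 0.17, adjusted p = 6.34e-05). The small MAF factors Mafk and Maff, which lack an activation domain, were lower in 6499c4 than in 6419c5 by -1.03 and -0.95 (adjusted p = 0.000287 and 0.000347, limma), in the direction of Fosl2. Batf3 was lower in 6499c4 than in 2838c3 by -1.45 (adjusted p = 0.00152), at 0.307 to 3.45 FPKM. For G-1, 0 of the 12 passed. Atf4, the factor of the integrated stress response that acts before Atf3, had a G-1 difference of 0.19 (SE 0.06, adjusted p = 0.398) and was the 1 gene of the list higher in all 3 lines, while Atf7 was lower in all with -0.16 (SE 0.10, adjusted p = 0.616).

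Other immediate early genes were mostly lower in 6499c4, as Atf3, Fosl1 and Fosl2 were. Of 27 tested of 33, 16 were lower and 4 higher in 6499c4 than in 2838c3, and 16 were lower and 1 higher in 6499c4 than in 6419c5, with medians of -0.50 and -0.56. Among all genes 28.9% were lower and 26.6% higher in the first of these comparisons, and 23.7% and 21.3% in the second. In 6419c5 against 2838c3, 9 were higher and 5 lower, with a median of 0.08. Dusp1, a phosphatase that switches off MAP kinases, was at 34.2 and 33.3 FPKM in 2838c3, 16.4 and 16.1 FPKM in 6419c5, and 3.54 and 4.62 FPKM in 6499c4 (6499c4 against 2838c3, -2.78, SE 0.12, adjusted p = 3.43e-06). Sgk1, a kinase induced by serum and glucocorticoid, was lower in 6499c4 than in 6419c5 by -3.05 (SE 0.10, adjusted p = 1.41e-06), and Plk2 lower than in 2838c3 by -1.88 (SE 0.08, adjusted p = 2.64e-06). Klf2 went the other way, higher in 6499c4 than in 2838c3 by 1.61 (SE 0.14, adjusted p = 7.99e-05).

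Under G-1, 0 of these 27 passed the main test, 3 were higher and 1 lower in all 3 lines (15.4% and 17.5% of all genes), and the median was 0.05. Klf4, a zinc finger factor, was at 41.0 and 51.9 FPKM in 2838c3, 44.3 and 56.7 FPKM in 6419c5, and 27.2 and 35.0 FPKM in 6499c4, a difference of 0.34 (SE 0.06, adjusted p = 0.219). It was called by limma-voom (adjusted p = 0.00373) as Jun, Junb and Jund were, and also after the GC and length correction (adjusted p = 0.0191). Ier3 had a difference of 0.27 (SE 0.06, adjusted p = 0.3) and was called by limma-voom (adjusted p = 0.0212), but not after the correction (adjusted p = 0.288). Nr4a1, an orphan nuclear receptor, had a difference of 0.20 (SE 0.08, adjusted p = 0.485).

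The factors and kinases that act before immediate early genes (SRF, ELK, CREB, MAP kinases and RSK kinases among them) went in both directions. Of 24 tested of 25, 9 were higher and 1 lower in 6419c5 than in 2838c3, 6 higher and 5 lower in 6499c4 than in 2838c3, and 3 higher and 6 lower in 6499c4 than in 6419c5, with medians of -0.05, -0.10 and -0.14, beside the same shares of all genes as above. Rps6ka1, which encodes RSK1, was at 13.9 and 14.1 FPKM in 2838c3 and between 31.8 and 34.6 FPKM in the other lines (6499c4 against 2838c3, 1.19, SE 0.08, adjusted p = 3.19e-05). Rps6ka3, which encodes RSK2, was higher in 6499c4 than in 6419c5 by 0.99 (SE 0.11, adjusted p = 0.00035). Mkl1, an SRF coactivator, was lower in 6499c4 than in 2838c3 by -0.80 (SE 0.10, adjusted p = 0.000363), and Mkl2 and Elk3 were lower than in 6419c5 by -0.97 and -0.77 (adjusted p = 0.00163 and 0.000547, limma). For G-1, 0 of the 24 passed, 2 were higher and 4 lower in all 3 lines (15.4% and 17.5% of all genes), and the median was -0.05. The largest of these was Elk4 with -0.18 (SE 0.10, adjusted p = 0.56), and Creb1 had -0.10 (SE 0.09, adjusted p = 0.721).

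Genes known as AP-1 targets were mostly lower in 6499c4, the line with the lowest Fosl1, Fosl2 and Atf3. Of 26 tested of 30, 20 were lower and 5 higher in 6499c4 than in 2838c3, and 19 were lower and 1 higher in 6499c4 than in 6419c5, with medians of -0.58 and -0.86, beside 28.9% lower and 26.6% higher, and 23.7% lower and 21.3% higher, among all genes. In 6419c5 against 2838c3, 11 were higher and 5 lower, with a median of 0.23. Mmp13, a collagenase, was at 20.3 and 14.1 FPKM in 2838c3, 56.7 and 44.6 FPKM in 6419c5, and 2.61 and 1.87 FPKM in 6499c4 (6499c4 against 6419c5, -3.99, SE 0.10, adjusted p = 4.54e-07). Plau, which encodes urokinase, was lower in 6499c4 than in 2838c3 by -2.98 (SE 0.18, adjusted p = 1.56e-05). Sprr1a, a cornified envelope gene, went the other way, with 29.9 and 19.1 FPKM in 2838c3, 50.7 and 39.3 FPKM in 6419c5 and 76.2 and 51.9 FPKM in 6499c4. Ivl, of the same envelope, was higher in 6419c5 than in 2838c3 by 3.19 (SE 0.19, adjusted p = 2.55e-05). These targets also answer to other factors, and what AP-1 contributes to them here was not tested.

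Under G-1, 0 of the 26 AP-1 targets passed the main test, 4 were higher and 9 lower in all 3 lines, beside 15.4% and 17.5% of all genes, and the median was -0.09. Sprr1a had a difference of -0.51 (SE 0.07, adjusted p = 0.175) and Mmp13 one of -0.39 (SE 0.08, adjusted p = 0.288), and both were called lower by limma-voom (adjusted p = 0.0108 and 0.0203) and after the GC and length correction (adjusted p = 0.00399 and 0.0416). Areg, the growth factor amphiregulin, was called higher by limma-voom with 0.36 (adjusted p = 0.0335), but not after the correction (adjusted p = 0.148). Mmp3 and Plau had differences of -0.39 and -0.38 that did not pass (adjusted p = 0.521 and 0.46, limma), and Mmp3 was listed at 0 in the G-1 library of 6499c4.

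Across the 6 libraries, the members fell into patterns that mostly reflected the lines. Pearson's r of log2(FPKM + 1) was 0.971 between Fosl2 and Atf3, 0.970 between Jund and Egr1, 0.925 between Junb and Ier2, and 0.908 between Fosl1 and Atf3. The lowest was -0.67, between Fosl1 and Egr1. These are descriptions over 6 libraries of 3 lines, which share cells in pairs. The genes with the pattern most like that of a member were Ldhd (r = 0.998) and Cpeb4 (0.995) for Fos, Cdk11b (0.996) and Fndc3b (0.994) for Fosb, Cep55 (0.999) and Tnpo2 (0.998) for Fosl1, and Nppb (0.999) and Cald1 (0.999) for Fosl2. They were Tmem219 (0.977) after Snord1b (0.996) for Jun, Zbtb7b (0.976) and Map6 (0.976) for Junb, and Zfp428 (0.990) and Smdt1 (0.980) for Jund. For the others they were Prmt2 (0.997) and Ppapdc1b (0.997) for Atf3, Tarsl2 (0.995) and Rps19 (0.994) for Egr1, and Tjap1 (0.991) and Cc2d1a (0.988) for Ier2. Snord1b and Nppb were listed at 0 FPKM in at least 1 library. A pattern at r of at least 0.95 was common for Fosl1 (424 genes) and Fosl2 (418 genes) and rare for Jun and Junb (6 genes each).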

How the data were processed

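RNA sequencing of 6 libraries (3 lines, vehicle or G-1) was analysed from FPKM values deposited by the authors for 24421 genes. The authors' tools include STAR and DESeq2 per the submitters' processing notes, which state neither role nor version. Not given in the sources used here are build, annotation, strandedness and counting rule. Low FPKM values moved in equal steps, from which whole reads were recovered for all 15712 genes above 0 (tolerance 0.01 reads). The library scale in the deposited FPKM equalled median-of-ratios size factors of these reads and deviated from read totals by up to 5.85%.

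Genes averaging at least 1 FPKM (10748) were tested as log2(FPKM + 1) in limma 3.58.1 (R 4.3.3, eBayes with trend), two-sided, with Benjamini-Hochberg adjustment over all of them and a threshold of 0.05. G-1 was compared with vehicle with the line as block (2 residual and 5.35 prior degrees of freedom). The line pairs the libraries by design; deviations of both libraries of a line correlated at 0.906, 0.871 and 0.882 (2838c3, 6419c5, 6499c4). Lines were compared with treatment as covariate, so the spread was that between both libraries of a line after the common treatment difference. These were 1 vehicle and 1 G-1 library per line, not replicates of 1 treatment. limma-voom on genes with a mean of at least 10 recovered reads, other scalings, filters and pseudocounts, and a GC and length correction (96.5% of genes had a value, from GENCODE M21) were alternatives. Read ratios carry exact 95% binomial intervals for counting error only. The pipeline was tested on simulated data, where the main test also called some unchanged genes.

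The members and lists were chosen with earlier results of these data known. Named were all 10 members, the 2 genes most like each by Pearson's r, and, from each related list, genes past the threshold for G-1, up to 4 with the largest G-1 difference of 1 sign in all lines, and up to 4 with the largest difference between lines. Areg was added after its limma-voom value was seen. Some items that meet this rule are not reported here. Protein sequences were not used here.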

Additional observations from a re-analysis of the deposited data

Results flagged for a closer look

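Fos, Fosb and Egr1 differed in sign between the lines under G-1, and the difference between lines was not tested, since each line has 1 pair of libraries. The log2(FPKM + 1) difference of Fos was -0.30 in 2838c3, 0.42 in 6419c5 and 0.27 in 6499c4. That of Fosb was -0.31, -0.026 and 0.23, and that of Egr1 was -0.049, 0.28 and 0.53 in the same order. By counting error alone, the read ratio interval lay above 1 for Fos in 6419c5 and for Egr1 in 6499c4, and spanned 1 for these genes otherwise, Fosb included in every line.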

How the results depend on the processing

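For G-1 the count of genes called was 3, and 0 members. It became 1 with a pseudocount of 0.1 or with GC content and length corrected, 6 with a filter of 5 FPKM, 8 with robust moderation, 0 without the trend and 0 without a filter. Without the line as replicate block it was 0. Leaving out a line gave 0 to 11 genes. limma-voom called 168 genes and 3 members, 134, 107 and 52 genes and 0 to 3 members when 2838c3, 6419c5 or 6499c4 was left out, and 39 genes (37 of them among the 168) and 1 member with the GC and length correction, the last 2 sets of fits added after seeing the data. Of 179 member values under 18 alternatives, 165 kept their direction and side of the threshold, and 10 passed it newly. Direction changed for Fosl1 (-0.0040) in limma-voom with the GC and length correction, for Fosb without 2838c3 (0.10, and 0.12 in limma-voom), and for Fos without 6419c5 (-0.013, and 0.34 without 2838c3). For 6419c5 against 2838c3 the main fit called 4 members, 2 with quantile scaling or with no filter and 2 to 3 when a library was left out, with 3430 to 3881 genes called in place of 5533. Junb ran from -0.052 without the vehicle library of 6419c5 to 0.31 without its G-1 library. For 6499c4 against 2838c3, 5 members became 3 with no filter and 3 to 5 when a library was left out; Fos ran from -0.19 without the G-1 library of 2838c3 to 0.45 without its vehicle library, and Jun from -0.087 without the G-1 library of 6499c4 to 0.44 without its vehicle library. For 6499c4 against 6419c5, 2612 to 3869 genes in place of 4836 were called when a library was left out, and Jund ran from -0.17 without the G-1 library of 6499c4 to 0.90 without its vehicle library. With GC content and length corrected, 5, 7 and 7 members were called in these line comparisons, in place of 4, 5 and 7. Newly called were Fosl2, higher in the first comparison, and Junb and Ier2, lower in the second. The cause of the changes between settings was not tested. The mean JUN share over the libraries was 59.2% by FPKM, 52.9% by reads and 56.2% with Atf3 in the total. With 36 to 90 reads, Fosb is the member that depth limits most.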
